A study of Mus musculus with 12 samples.

Results

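Heat shock proteins and their J-domain co-chaperones were read in adult mouse ventricle as the protein-coding genes whose symbols begin with Hspa, Hspb, Hspd, Hspe, Hsph, Hsp90 or Dnaj. Of 73 such genes, Hspa12a, Hspbp1 and Hspbap1 were left out, which gave 70 of the 40594 genes in the count table. Total RNA of adult hearts was sequenced, separately for the left (LV) and the right (RV) ventricle, and each heart is labelled control or Wnt LOF (loss of Wnt function). The 12 libraries formed 4 groups of 3: control LV, control RV, Wnt LOF LV and Wnt LOF RV. The labels used here name no targeted gene, Cre driver or strain, no treatment, and no animal for a library. The p-values therefore measure the spread between these libraries, whatever its source. Levels are given as CPM, the reads of a gene scaled to a common library total, after scaling with edgeR's TMM factors. The low-count filter kept 63 of the 70 genes, and the other 7 (Hspb9, Dnajb3, Dnajb8, Dnajb13, Dnajc5b, Dnajc5g and Dnajc22) are at most 0.861 CPM in every library.

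Chaperones bind unfolded proteins and keep them from aggregating while they fold. HSP70 proteins cycle between loose and tight binding of their clients, J-domain (DNAJ) proteins bring clients and start the cycle, and HSP110 proteins release the nucleotide that ends it. HSP90 acts later, on signalling proteins and receptors, HSP60 with its HSP10 lid folds proteins in mitochondria, and small heat shock proteins hold damaged proteins without using ATP. Heat shock factor 1 (HSF1) raises many of these genes under stress, and heart muscle keeps high levels of several small heat shock proteins at rest, where they bind sarcomere and cytoskeletal proteins.

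Library totals ran from 13274922 to 19173391 counts, and mitochondrially encoded genes took 4.62% to 8.29%. Ventricular cardiomyocyte markers summed to 149600 to 171800 CPM in every library, against 25.2 to 95.0 CPM for atrial markers. Ctnnb1, the gene of beta-catenin, overlapped between genotypes in the LV (426 to 598 CPM in control, 395 to 532 CPM in Wnt LOF). In the RV it was at 511 to 560 CPM in control and at 352 to 454 CPM in Wnt LOF, all lower (log2 fold change -0.37, SE 0.14, edgeR unadjusted p 0.0203, adjusted p 1). In each group the library numbered 3 was the one of 3 with the Y-linked gene Ddx3y above 1 CPM. One label is in doubt. Across 40 genes whose libraries split into a high and a low set, left and right libraries with the same number shared 39 or 40 states in 5 of 6 cases, while libraries of 1 group shared 7 to 31. The library labelled control LV 2 shared 31 of 40 with control RV 2 and 40 of 40 with both WntLOF LV 1 and WntLOF RV 1. Counts over all 63 tested members, and most of the single genes described, are therefore also given without these 3 libraries. Groups of 2 or 3 libraries are then left, and the share of all genes whose groups do not overlap rises with that.

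The DNA just upstream of these genes shows which of them carry the letters bound by their known regulators. HSF1 binds inverted repeats of GAA (heat shock elements), and endoplasmic reticulum (ER) stress acts through a longer element. RefSeq promoter windows of 300 bases (GRCm38.p6, 250 bases before to 50 after a gene start) matched 56 of the 70 genes, and a gene counted if any of its windows held a match. The stretches below are the 250 bases before the start, printed 5′ to 3′ on the gene's strand, with matches in capitals. They show the shared Hspd1 and Hspe1 promoter, the genes Hspa1a and Hspb1 that lead the genotype comparison in the LV, and 2 ER genes with the stress element.
Hspe1 (chr1:55087898-55088147, plus strand): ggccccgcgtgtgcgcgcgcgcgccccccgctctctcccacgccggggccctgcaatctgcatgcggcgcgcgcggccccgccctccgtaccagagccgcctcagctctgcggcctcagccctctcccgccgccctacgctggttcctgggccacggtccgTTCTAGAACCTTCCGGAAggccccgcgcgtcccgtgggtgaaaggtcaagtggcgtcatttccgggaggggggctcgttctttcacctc
Hspa1a (chr17:34972157-34972406, minus strand): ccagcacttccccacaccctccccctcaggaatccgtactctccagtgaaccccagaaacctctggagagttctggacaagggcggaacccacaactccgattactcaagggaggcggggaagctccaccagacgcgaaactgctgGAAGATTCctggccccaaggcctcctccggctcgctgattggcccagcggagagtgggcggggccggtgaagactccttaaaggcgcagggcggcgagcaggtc
Hspb1 (chr5:135887669-135887918, plus strand): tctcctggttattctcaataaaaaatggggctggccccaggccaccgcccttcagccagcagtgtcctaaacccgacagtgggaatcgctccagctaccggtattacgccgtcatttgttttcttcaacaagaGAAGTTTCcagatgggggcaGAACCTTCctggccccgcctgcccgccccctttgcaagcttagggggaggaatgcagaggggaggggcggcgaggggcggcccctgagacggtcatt
Hspa5 (chr2:34771840-34772089, plus strand): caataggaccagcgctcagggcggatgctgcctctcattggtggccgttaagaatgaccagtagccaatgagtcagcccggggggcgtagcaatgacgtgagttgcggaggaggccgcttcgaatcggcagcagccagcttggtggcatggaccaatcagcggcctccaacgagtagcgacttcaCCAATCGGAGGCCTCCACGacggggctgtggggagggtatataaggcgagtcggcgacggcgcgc
Hsp90b1 (chr10:86705445-86705694, minus strand): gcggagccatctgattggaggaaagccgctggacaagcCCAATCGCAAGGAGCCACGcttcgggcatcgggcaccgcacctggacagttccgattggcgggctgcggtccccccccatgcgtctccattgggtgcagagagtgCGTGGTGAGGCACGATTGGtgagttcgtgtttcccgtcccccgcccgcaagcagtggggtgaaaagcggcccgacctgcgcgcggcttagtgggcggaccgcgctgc

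The capitals of Hspe1 hold the 3-unit element (GAANNTTCNNGAA or TTCNNGAANNTTC). It was found in 4 members (Hspe1, Hspd1, Hsph1 and Dnajb6), 7.14% of those matched, against 0.662% of 27025 genes. Hspd1 and Hspe1, the HSP60 chaperonin and its HSP10 lid, are read in opposite directions, and 285 of the 300 bases of their windows are the same stretch. In Hspa1a and Hspb1 the capitals mark the shorter 2-unit element (GAANNTTC or TTCNNGAA), which lies inside every 3-unit match. It was found in 16 members (28.6%) and in 17.0% of genes, so it is common. Of the 15 members listed as heat-inducible, 12 matched a window and 10 of these held it. Hspa1b differs from Hspa1a at 3 of the 250 bases and holds the same match. Capitals of Hspa5 and Hsp90b1 mark the ER stress element (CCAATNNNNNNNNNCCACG, either strand), found in 3 members (these and Dnajc3, 5.36%) and in 0.137% of genes. All motifs were searched on both strands, and a match is a description of letters, not a bound site.

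Levels per length ran from 393 to 0.118 CPM per kb of exon among the tested genes, and 2 small heat shock genes were highest. Hspb7, a cardiac small heat shock protein, had a mean of 393 CPM per kb of exon (SD 82.6, 12 libraries), and Hspb8, a partner of the co-chaperone Bag3, had 319 CPM per kb (SD 32.3). Next came Hsp90ab1, the constitutive cytosolic HSP90, with 185 CPM per kb (SD 22.3). Hspa9, the mitochondrial HSP70, had 170 (SD 10.2), and Hspa5, the ER HSP70 called BiP, had 153 CPM per kb (SD 18.4). Neighbours in that order, from Hspb7 and Hspb8 down to Hspa5, had overlapping library ranges except Hspb8 and Hsp90ab1. Dnaja2 (86.0 CPM per kb) was the highest J-domain gene. The stress-inducible HSP70 genes were near the bottom, with Hspa1b at 0.646 and Hspa1a at 0.265 CPM per kb. The inducible HSP90 gene Hsp90aa1 had 5.96 CPM per kb, far under Hsp90ab1. Of the distinct 50-base words of these genes, 66.3% (Hspa1a), 62.3% (Hspa1b) and 47.5% (Hsp90aa1) occur in another gene, against 3.44% for Hsp90ab1. No source used here states how shared reads were counted, so these low levels are uncertain. Members varied little between libraries, with a median coefficient of variation of 12.1% against 13.9% over all 15494 genes tested.

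**Figure D1:**
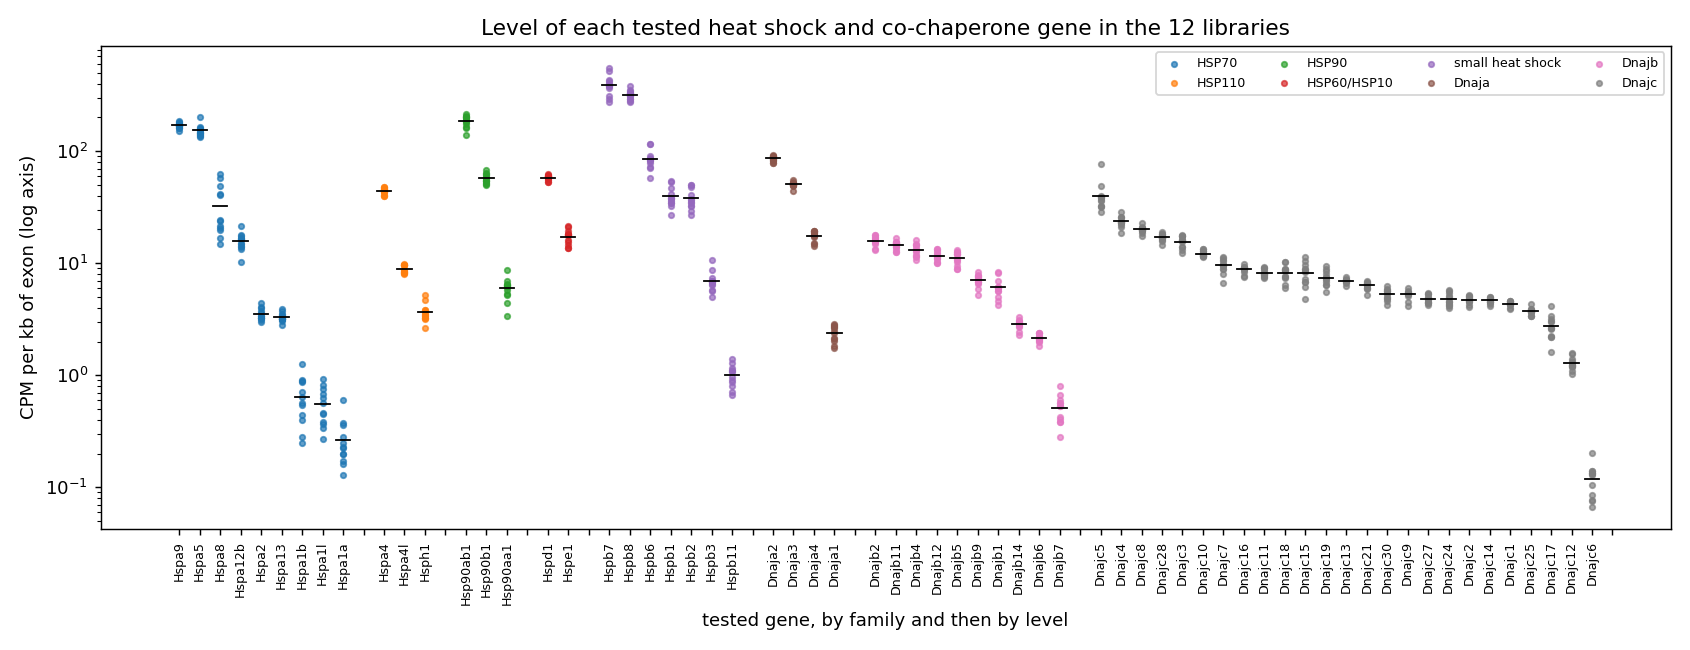
CPM per kb of exon (log axis) of the 63 tested genes, by family; points are the 12 libraries and bars their means. Hspb7 (393) and Hspb8 (319) are highest, and Hspa1a (0.265) and Dnajc6 (0.118) lie at the bottom.

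In the LV, most members lay slightly lower in Wnt LOF than in control, led by Hspb1, Hspa1a and Hspa1b, and no single gene passed the test. Of the 63 tested, 45 had a log2 fold change below 0, against 50.9% of all genes, and their median was -0.05, against 0.00 over all genes. By edgeR's quasi-likelihood test with Benjamini-Hochberg adjustment over all genes, 0 members and 0% of all genes had an adjusted p under 0.05 (smallest member value 0.999). At an unadjusted p under 0.05 there were 5 members, all lower, and 2.85% of all genes. That count was 1 (1.81% of genes) without control LV 1, 3 (2.08%) without WntLOF LV 1 and 3 (5.67%) without WntLOF LV 3. DESeq2 also called 0 members, with 4 at an unadjusted p under 0.05, against 367 of 27744 genes with a p-value. CPM of the 2 groups did not overlap for 8 members that were lower and 2 that were higher, against 3.95% of all genes in each direction. Without the libraries labelled control LV 2, WntLOF LV 1 and WntLOF RV 1, 38 members were below 0, the median was -0.05 and 3 (2.5% of genes) had an unadjusted p under 0.05. Groups then did not overlap for 14 members that were lower (12.4% of genes) and 7 that were higher (13.3%).

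Hspb1, the small heat shock protein that caps actin filaments, was at 55.0, 42.6 and 37.3 CPM in control LV libraries 1 to 3. In Wnt LOF LV it was at 27.9, 35.7 and 33.1 CPM. Every Wnt LOF value was under every control value, by a narrow margin between the nearest pair. The log2 fold change was -0.48 (SE 0.17, edgeR unadjusted p 0.0123, adjusted p 0.999). Without control LV 1, the highest library, it was -0.31, and without the 3 doubted libraries it was -0.43. Reads from near-identical copies limit this value, since 50.1% of the distinct 50-base words of its exons occur in another gene.

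Hspa1a and Hspa1b, which encode the stress-inducible HSP70, had few counted reads. Hspa1a was at 1.801, 0.738 and 0.681 CPM in control LV and at 0.474, 0.593 and 0.505 CPM in Wnt LOF LV. Its whole range over the 12 libraries was 6 to 35 counts, and control LV 1 stood well above the other LV libraries. Hspa1b was at 3.50, 2.48 and 1.51 CPM in control LV and at 1.60, 1.25 and 0.785 CPM in Wnt LOF LV, with overlapping groups. Log2 fold changes were -1.06 (SE 0.44) for Hspa1a and -1.07 (SE 0.45) for Hspa1b, with adjusted p of 0.999 by edgeR for each. Without control LV 1 Hspa1a had -0.44 and Hspa1b -0.74, and without the 3 doubted libraries -1.23 and -1.34. The copies share 66.3% (Hspa1a) and 62.3% (Hspa1b) of their 50-base words with other genes, so their reads may be split between them and the pair is uncertain.

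Among the rest of the LV differences, Dnajb5, a J-domain protein found in muscle, was at 77.7, 75.5 and 74.7 CPM in control and at 53.0, 71.7 and 56.5 CPM in Wnt LOF. All 3 Wnt LOF values were lower, and WntLOF LV 2 came close to the controls (log2 fold change -0.33, SE 0.12; -0.25 without the 3 doubted libraries). Hspb6, the small heat shock protein also called HSP20, was at 194, 207 and 265 CPM in control and at 164, 199 and 133 CPM in Wnt LOF, with a log2 fold change of -0.43 (SE 0.18). Those groups overlapped, and without the 3 doubted libraries the value was -0.47 (SE 0.25). Hsp90aa1 was at 33.9, 25.7 and 24.96 CPM in control and at 21.0, 24.7 and 17.4 CPM in Wnt LOF (log2 fold change -0.43, SE 0.22). Its groups were apart, but without control LV 1 the value was -0.27, without the 3 doubted libraries it was -0.49, and 47.5% of its 50-base words occur in another gene. Dnajb4 (-0.23), Dnajc9 (-0.24), Dnajc2 (-0.16) and Dnajc6 (-0.17) were the other genes whose Wnt LOF libraries were all lower. Without the 3 doubted libraries these values were -0.31, -0.14, -0.16 and -0.24. For Dnajc6 the nearest libraries were almost equal (0.79 CPM in Wnt LOF against 0.7908 CPM in control), at 6 to 20 counts per library. Hspa13, an ER-associated HSP70 relative (0.21), and Dnajc5, the synaptic vesicle chaperone cysteine string protein (0.41), were the 2 whose Wnt LOF libraries were all higher. Without the 3 doubted libraries Hspa13 had 0.28 (SE 0.13) and Dnajc5 0.23 (SE 0.27).

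**Figure D2:**
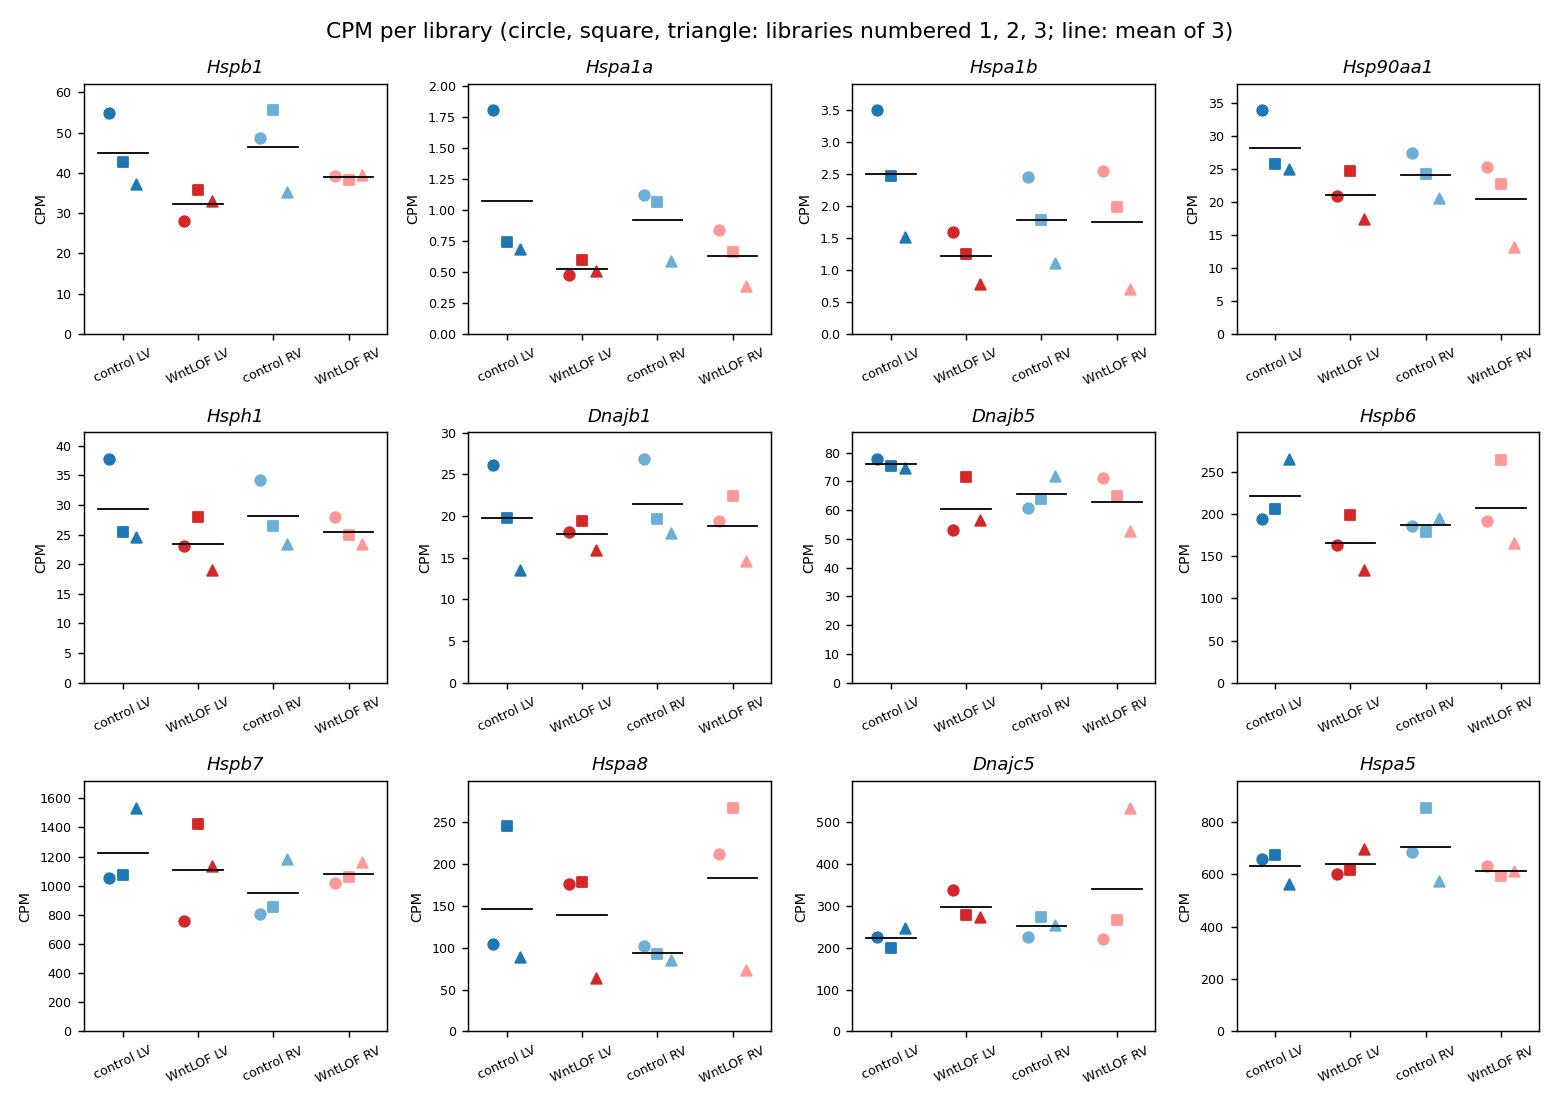
CPM per library of 12 members in the 4 groups; marker shapes are library numbers and lines are means of 3. Control LV 1 is the highest library for Hspa1a (1.801) and Hspa1b (3.50), and Hspa8 takes a high or a low level within a group.

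The 15 heat-inducible members showed how far single libraries set these values. In the LV 13 of them were below 0, against 50.9% of all genes, with a median of -0.08. In the RV 11 were below 0, against 49.7% of all genes, with a median of -0.11. None was called by edgeR in either ventricle, and 3 and 0 had an unadjusted p under 0.05, against 2.85% and 2.7% of all genes. Control LV 1 had the highest level of its group for 11 of the 15, against 33.2% of all genes. Control RV 1 likewise led its group for 11 (30% of genes), WntLOF RV 1 for 10 (33.2%) and WntLOF LV 2 for 9 (32.4%). Without control LV 1 the LV median was -0.04, and without control RV 1 the RV median was 0.00 with 7 below 0. Without WntLOF RV 3 the RV median was -0.02. Without the 3 doubted libraries the medians were -0.155 in the LV (11 below 0) and -0.21 in the RV (12 below 0).

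Other measures also differed between LV libraries. For control LV 1 the median deviation from the mean of 12 libraries was 0.24 (log2) for the heat-inducible members. For 20 tested immediate early genes it was 0.25, and each was the highest of the 12 libraries. In control LV 3 the 2 lists parted, at -0.10 and 0.13. Endothelial markers did not follow control LV 1 alone. They summed to 948, 882 and 918 CPM in control LV 1 to 3, all above the 703 to 872 CPM in Wnt LOF LV. Of these 6 markers 0 were at 0 throughout. The part of these measures in the LV difference was not tested. In bulk tissue, fewer cells of a type and less RNA per cell cannot be told apart.

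In the RV, members were close to balance between genotypes, and the largest shift was in Hspa8. Of the 63 tested, 36 were below 0, against 49.7% of all genes, with a median of -0.03. By edgeR 0 members were called, as were 0% of all genes, and the smallest adjusted p was 1. Only Dnajc6 had an unadjusted p under 0.05, against 2.7% of all genes. That count ran from 0, without control RV 2 (2.82% of genes) or WntLOF RV 2 (3.23%), to 5, without WntLOF RV 1 (4.61%). It was 4 without control RV 3 (3.3%) and 2 without WntLOF RV 3 (2.3%). DESeq2 called 0 members and had 0 at an unadjusted p under 0.05, against 346 of 27744 genes with a p-value. Groups did not overlap for 2 members that were lower, against 3.94% of all genes, and for 3 that were higher, against 3.61%. Without the 3 doubted libraries 42 were below 0 with a median of -0.08, and 4 (4.21% of genes) had an unadjusted p under 0.05. Groups then did not overlap for 6 that were lower (10.4% of genes) and 5 that were higher (10.3%).

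Dnajc6, the clathrin-uncoating protein auxilin, was at 0.446, 0.397 and 0.457 CPM in control RV and at 0.4999, 1.204 and 0.767 CPM in Wnt LOF RV. All Wnt LOF values were higher, at counts near the filter, and the log2 fold change was 0.91 (SE 0.36), or 1.17 (SE 0.38) without the 3 doubted libraries. Hspd1, the mitochondrial HSP60, was at 161, 158 and 159 CPM in control RV and at 155, 140 and 139 CPM in Wnt LOF RV. The Wnt LOF libraries were all lower, by little (log2 fold change -0.14, SE 0.07, edgeR adjusted p 1), or -0.19 without the 3 doubted libraries. Other genes hold 42.1% of its 50-base words. Its lid Hspe1 had -0.04 (SE 0.14). Dnajb6, a suppressor of protein aggregation, had -0.19 (SE 0.11) with Wnt LOF libraries all lower. Hspa1l (0.68, SE 0.37) and Dnajc8 (0.13, SE 0.09) were the other genes with Wnt LOF libraries all higher. Hspa1l shares 71.9% of its exon bases with Gm10501 and 71.4% of its 50-base words with other genes, so its values are uncertain. Hspb1 in the RV was at 48.8, 55.5 and 35.3 CPM in control and at 39.2, 38.3 and 39.5 CPM in Wnt LOF, so that the groups overlapped.

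Hspa8, the constitutive cytosolic HSP70 also called HSC70, varied most between libraries of the 63 tested, with a coefficient of variation of 50.7% (next Hspa1a, 49.4%). It was at 105, 246 and 89.1 CPM in control LV and at 102, 92.6 and 85.7 CPM in control RV. In Wnt LOF it was at 176, 178 and 63.3 CPM in the LV and at 211, 267 and 72.9 CPM in the RV. The levels fell into a high set of 5 libraries, from 176 CPM upward, and a low set of 7, up to 105 CPM. The high set held the Wnt LOF libraries numbered 1 and 2 and the library labelled control LV 2, which shared all 40 on-off states with the Wnt LOF libraries numbered 1. All control libraries but that one, and the Wnt LOF libraries numbered 3, were in the low set.

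This pattern was noticed after the values were seen and is given as a description. The fitted log2 fold change of Hspa8 between genotypes was -0.08 in the LV, with an SE of 0.57, and 0.98 in the RV, with an SE of 0.58. Neither passed the edgeR threshold (adjusted p 0.999 and 1). Without the library labelled control LV 2 the LV value was 0.53 (SE 0.58), so that library turned its sign. Without all 3 doubted libraries the LV value was 0.32 and the RV value 0.86. In control hearts the RV against LV value was -0.65 (SE 0.58), and -0.06 without that library. Other genes share 39.4% of the 50-base words of Hspa8. The copy with the largest share, Gm15459, is listed at 0 counts in every library, and no source used here states how shared reads were counted.

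Across all groups, libraries numbered 3 had low levels of several cytosolic stress chaperones. The number 3 library was the lowest of its 3 in every group for 9 of the 63 members (14.3%), against 4.69% of all genes. They were Hspa8, Hspa1b, Hsph1, Hsp90aa1, Dnaja1, Dnaja4 and Dnajb1, which are 7 of the 15 on the heat-inducible list, with the ER genes Dnajc1 and Dnajc3. Others on that list did not follow, such as Hspb1, which was highest of its group in WntLOF RV 3 (39.5 CPM). The number 3 library was the highest in every group for 0 members, against 3.93% of all genes. The number 1 library also had shares above those of all genes, on few members. It was the lowest in every group for 3 members (4.76%), against 1.51% of all genes. For another 3 members (4.76%) it was the highest, against 1.91%. Dnajb1, the J-domain partner of the inducible HSP70, was at 13.5 CPM in control LV 3 against 26.1 and 19.8 CPM in the other control LV libraries. In control RV 3 it was at 18.02 CPM, against 26.8 and 19.6 CPM. Dnaja1, a farnesylated cytosolic J-domain protein, was at 15.2 to 18.4 CPM in the 4 libraries numbered 3 and at 18.2 to 24.9 CPM in the other 8. These 4 libraries are those with Ddx3y reads. Most same-numbered left and right libraries shared nearly all on-off states, so the 4 groups are not 4 independent repeats. The labels do not say what a number stands for, so sex, heart and handling cannot be told apart.

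**Figure D3:**
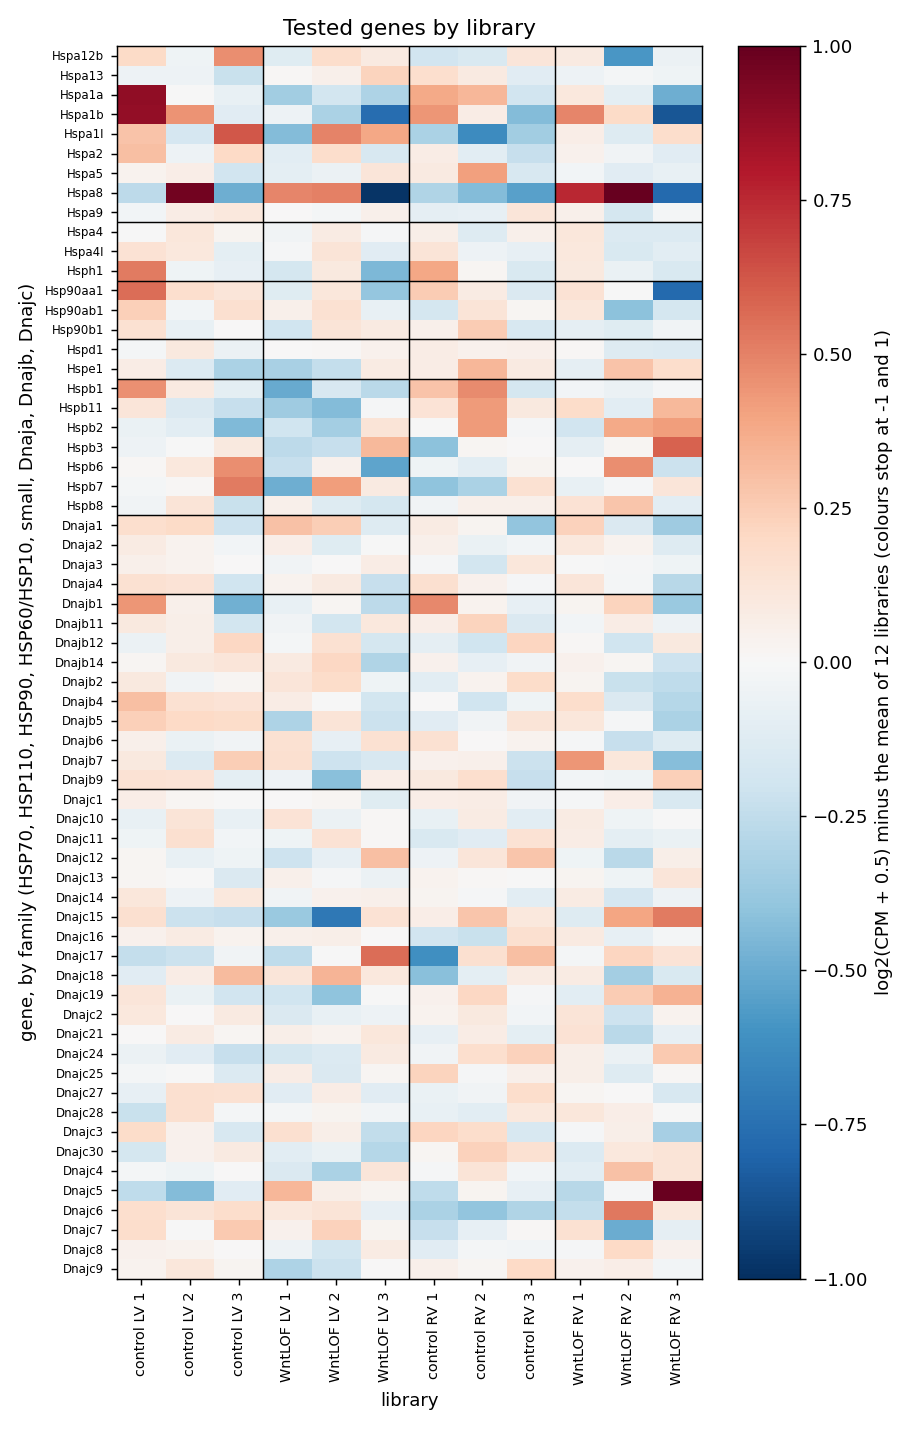
Deviation of log2(CPM + 0.5) from the mean of 12 libraries for the 63 tested genes, by family (rows) and library (columns). Libraries numbered 3 are blue in all 4 groups for genes such as Hspa8, Hsph1 and Dnajb1, and most other rows are pale.

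Between ventricles of control hearts, Dnajb4 (-0.28), Dnajc6 (-0.90) and Hspa1l (-0.97) had the lowest unadjusted p, all with lower values in the RV, and none passed. Of the 63 members 36 were below 0, against 49% of all genes, with a median of -0.05. By edgeR 0 members and 0% of genes were called, and the smallest member value was 0.922. At an unadjusted p under 0.05 there were 3 members, against 4.89% of all genes, and DESeq2 had 2 (729 of 27744 genes) with 0 called. That count was 0 without control RV 2 (2.92% of genes), 1 without control LV 3 (3.24%), 5 without the library labelled control LV 2 (4.93%) and 9 without control RV 3 (6.25%). Groups did not overlap for 5 members that were lower in the RV, against 5.92% of genes, and for 2 that were higher (Hspb2, 0.35, and Dnajc24, 0.27), against 6.68%. The 5 were Hspa1l, Dnajc6, Dnajb4, Dnajb5 (-0.21) and Dnajc8 (-0.08). Without the 3 doubted libraries 35 were below 0 with a median of -0.02, and 5 (5.77% of genes) had an unadjusted p under 0.05. Groups then did not overlap for 11 that were lower (11.6% of genes) and 4 that were higher (11.5%).

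Dnajb4, a heart-expressed J-domain protein, was at 142, 127 and 126 CPM in control LV and at 115, 100 and 111 CPM in control RV. Every RV library was lower, with a log2 fold change of -0.28 (SE 0.11), or -0.30 (SE 0.10) without the 3 doubted libraries. Hspb7 was at 1054, 1077 and 1533 CPM in control LV and at 807, 856 and 1185 CPM in control RV. Each RV library was under the LV library of its number although the groups overlapped. Its log2 fold change was -0.36 (SE 0.22, edgeR adjusted p 0.922). A fit of the control libraries alone with the library number as a block, an analysis added after earlier results were known, gave -0.36 and an adjusted p of 0.0293. Hspb7 was the 1 member called there, among 326 genes called of 14899, with 14 members and 14.7% of all genes at an unadjusted p under 0.05. In that block the partner of control RV 2 is the library whose label is in doubt, control LV 2. Over all 12 libraries the block gave an adjusted p of 0.517, and without the 3 doubted libraries the fit with no block gave -0.45 (adjusted p 0.854).

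Between ventricles of Wnt LOF hearts, members lay evenly on both sides. Of the 63, 31 were below 0, against 50.2% of all genes, and the median was 0.00. By edgeR 0 members and 0% of genes were called (smallest adjusted p 1). There were 4 members at an unadjusted p under 0.05, against 4.81% of genes, and DESeq2 had 4 (679 of 27744 genes) with 0 called. That count was 12 without WntLOF RV 1 (10.3% of genes), 9 without WntLOF LV 3 (9.02%), 2 without WntLOF LV 2 (2.44%) and 1 without WntLOF LV 1 (4.05%) or WntLOF RV 2 (2.27%). Groups did not overlap for 2 members that were lower in the RV (Dnajc18 and Hspa13), against 3.7% of genes, and for 1 that was higher (Hspb1, 0.27), against 3.36%. Without the 3 doubted libraries 34 members were below 0 with a median of -0.04, and 8 (8.21% of genes) had an unadjusted p under 0.05. Groups then did not overlap for 19 that were lower (18.9% of genes) and 8 that were higher (17.9%). Dnajc15 and Dnajc19, J-domain proteins of the mitochondrial import motor, had log2 fold changes of 0.56 (SE 0.22) and 0.38 (SE 0.14), or 0.69 and 0.50 without the 3 doubted libraries. Dnajc15 was at 39.9, 31.4 and 57.4 CPM in the LV and at 47.4, 68.1 and 74.6 CPM in the RV, with overlapping groups. Dnajb2 (-0.24) and Dnajc18 (-0.32) were the 2 with an unadjusted p under 0.05 that were lower.

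Over all genes, RV against LV values moved with gene length. All tested genes with 1 to 2 kb of exon had median RV against LV values of 0.08 in control and 0.10 in Wnt LOF. Of the 8 members of that length 7 were above 0 in each genotype, with medians of 0.11 and 0.21. Members with over 4 kb had medians of -0.05 in each, against -0.01 in control and -0.02 in Wnt LOF over all genes of that length. The 21 members of 2 to 4 kb had a median of -0.08 in control, against 0.01 over all genes. In Wnt LOF they had 0.03, against 0.02. Member medians in control hearts therefore did not fall steadily with length. The part of length in these values was not tested.

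The genotype difference in the RV minus that in the LV was tested as an interaction, and the small heat shock genes lay on one side of 0. All 7 tested small heat shock genes, grouped by the symbol prefix Hspb alone, were above 0, with a median of 0.23 and a range from 0.00 to 0.58. Scaling by total counts left 6 of the 7 above 0. Without the 3 doubted libraries 7 of 7 were above 0 with a median of 0.17. In the LV 6 of the 7 were below 0 in Wnt LOF, and in the RV 5 of the 7 were above 0. Hspb6 had the largest interaction value of the 7, 0.58 (SE 0.26, edgeR adjusted p 1). In the RV it was at 186, 179 and 196 CPM in control and at 192, 265 and 165 CPM in Wnt LOF, which overlap. That side of 0 was not particular to the small heat shock genes. Above 0 were also 7 of 9 HSP70 genes (median 0.24) and 17 of 20 immediate early genes (median 0.20). Of the ER members 5 of 11 were above 0, and of the HSP90 genes 1 of 3. Over all 63 members 23 were below 0, against 49.1% of all genes, with a median of 0.04. Scaling by total counts put 32 of the 63 below 0, and leaving out the 3 doubted libraries put 29 there. By edgeR 0 members and 0% of genes were called, and 2 members (Hspb6 and Dnajc6) had an unadjusted p under 0.05, against 2.01% of genes. Leaving out 1 library gave 0 to 4 members, while the share of all genes ran from 1.54% to 4.01%. DESeq2 called 0 members, with 1 at an unadjusted p under 0.05, against 256 of 27744 genes with a p-value. Cryab, the small heat shock relative alphaB-crystallin that overlaps Hspb2 on the opposite strand, had an interaction value of 0.38 (SE 0.18, edgeR adjusted p 1). No source used here states the strand setting, so reads of Hspb2 and Cryab over the shared 30.2% of Hspb2 exons cannot be told apart.

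**Figure D4:**
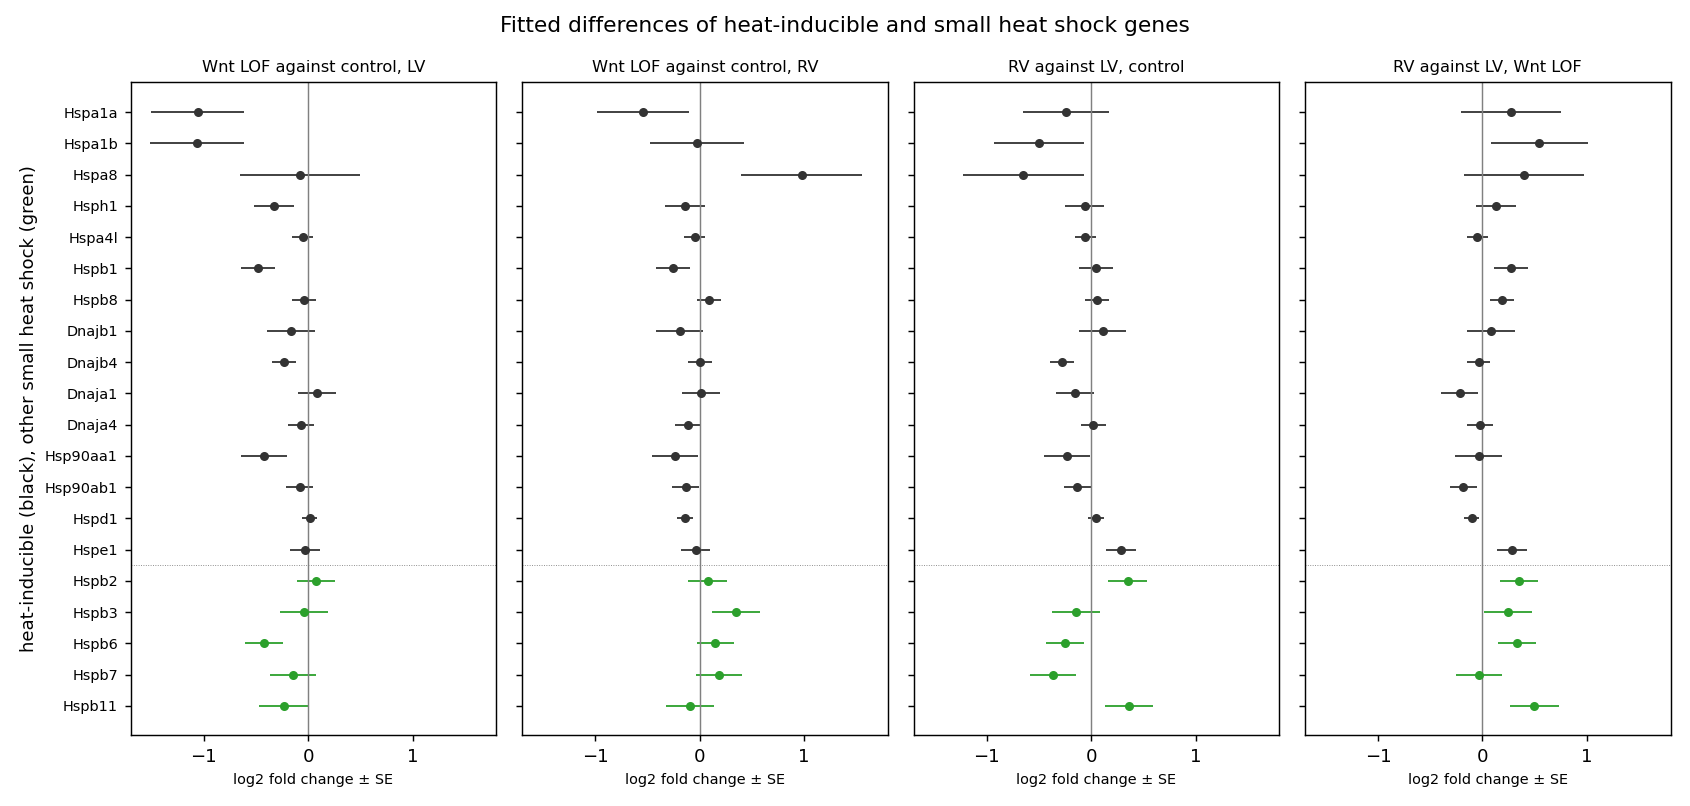
Log2 fold change with its SE for the heat-inducible members (black) and other small heat shock genes (green) in the 4 pairwise comparisons. Hspa1a (-1.06) and Hspa1b (-1.07) lie farthest left in the LV, with wide bars, and Hspa8 (0.98) farthest right in the RV.

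ER and mitochondrial members differed little between genotypes. Of 11 ER members 8 were below 0 in the LV (median -0.03) and 8 in the RV (median -0.06). Of all genes 50.9% and 49.7% were below 0. By edgeR 0 ER members were called in either ventricle, as were 0% of all genes. At an edgeR unadjusted p under 0.05 there were 0, against 2.85% (LV) and 2.7% (RV) of all genes. Scaling by total counts left 4 of the 11 below 0 in the LV. Hspa5 was at 658, 674 and 563 CPM in control LV and at 600, 615 and 697 CPM in Wnt LOF LV. In the RV it was at 684, 852 and 574 CPM in control and at 630, 594 and 611 CPM in Wnt LOF. The groups overlapped in both ventricles, and control RV 2 was the highest of the 12. Hsp90b1, the ER HSP90 called GRP94, had a log2 fold change of -0.02 in the LV, and -0.14 in the RV. Of 10 mitochondrial members 7 were below 0 in the LV and 4 in the RV, with medians of -0.04 and 0.00, and scaling by total counts put 6 below 0 in each. Between ventricles of Wnt LOF hearts the mitochondrial members had a median of 0.13. There Dnajc15 and Dnajc19 were the 2 of 10 at an edgeR unadjusted p under 0.05, against 4.81% of all genes. Hspa9 ran from 649 to 797.5 CPM in all 12 libraries.

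In the RV, Dnajc5 stood out through 1 library. It was at 225, 274 and 253 CPM in control RV and at 221, 266 and 533 CPM in Wnt LOF RV. WntLOF RV 3 was thus well above every other library, the next being 338 CPM in WntLOF LV 1. That library also had the highest Myl7 (10.2 CPM), Myl4 (10.7 CPM) and Sln (1.85 CPM), atrial genes that were at most 1.26, 2.86 and 0.167 CPM elsewhere. The whole list of 6 atrial markers summed to 53.4 CPM there, inside the range of the other libraries, and 0 of the 6 were at 0 throughout. Their part in the Dnajc5 value was not tested. The RV log2 fold change of Dnajc5 was 0.44 (SE 0.27) with that library and -0.04 (SE 0.14) without it.

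Genes that act with these chaperones were read from lists chosen by name. By edgeR 0 of them were called in any comparison. Counts at an unadjusted p under 0.05 were 0 to 5 per list, against 2.01% to 4.89% of all genes by comparison. Of all genes, 50.9% were below 0 between genotypes in the LV and 49.7% in the RV. Scaling by total counts raised the median of all genes by 0.03 in the LV. Of 5 tested heat shock factors and regulators, 4 were below 0 in the LV. Hsbp1, which binds HSF1 trimers, had -0.29 (SE 0.10) there, with Wnt LOF libraries all lower. Hsf1 was at 32.3, 31.2 and 33.3 CPM in control LV and at 27.3, 32.3 and 26.3 CPM in Wnt LOF LV, with overlapping groups (-0.17, SE 0.10). Of the 8 subunits of TRiC/CCT, the cytosolic chaperonin that folds actin and tubulin, 8 were below 0 in each ventricle (7 in the LV by total counts), with medians of -0.07 and -0.11, and 1 (Cct4) had an unadjusted p under 0.05 in the RV. Of 6 BAG nucleotide exchange factors 4 were below 0 in the LV and 3 in the RV. Bag3, the partner of Hspb8, had a log2 fold change of -0.23 in the LV (SE 0.15), against 0.10 in the RV (SE 0.15). Of 23 other co-chaperones 17 were below 0 in the LV (13 by total counts) and 16 in the RV. Unc45b, the myosin chaperone, had -0.23 (SE 0.08) in the RV with Wnt LOF libraries all lower. Of 22 genes of the ER unfolded protein response 15 and 17 were below 0 (medians -0.06 and -0.12), and Herpud1 had -0.29 (SE 0.12) in the LV. Of 11 mitochondrial chaperones and proteases 9 were below 0 in the LV (6 by total counts) and 6 in the RV. Of 20 immediate early genes 14 were below 0 in the LV (median -0.10) and 5 in the RV (median 0.09). Between ventricles of control hearts 18 of the 20 were lower in the RV (median -0.24), against 49% of all genes. Of these, 5 had an edgeR unadjusted p under 0.05, against 4.89% of all genes. In Wnt LOF hearts 11 of the 20 were lower in the RV, and 0 had such a p.

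The authors' deposited table for each genotype comparison lists 61 of the 70 members. In the authors' deposited table for the LV 44 were below 0 and 9 had a p-value under 0.05, against 5.6% of all genes listed, with a smallest adjusted p of 0.841. Of the 9, Dnajc5 is the 1 with a higher value in Wnt LOF, at 0.53 in the authors' deposited table. Hspb1 has a log2 fold change of -0.52, Hspa1b -1.01 and Hsp90aa1 -0.44 in the authors' deposited table for the LV. In the authors' deposited table for the RV 37 were below 0 and 5 had a p-value under 0.05, against 5.39% of all genes listed (smallest adjusted p 0.918). Those 5 in the authors' deposited table are Dnajc5 (0.59), Hspb3 (0.46), Hsp90aa1 (-0.37), Dnajc3 (-0.17) and Hspd1 (-0.15), and the high Dnajc5 level of WntLOF RV 3 is described above.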

How the data were processed

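Raw read counts for each Ensembl gene in 12 libraries come from the authors' deposited table. The submitters' processing notes name featureCounts, Subread and edgeR without versions. Aligner, genome build and strand setting: not given in the sources used here. Of 41192 rows, 598 repeated a gene with equal counts and were dropped. For the genotype comparisons, 2 deposited tables hold the authors' own log2 fold changes and p-values, per the file headers. The members and gene lists were chosen with earlier results of these data known.

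Counts were fitted with edgeR 4.0.16 in R 4.3.3 (filterByExpr by group, TMM, robust quasi-likelihood, 1 mean per group over 12 libraries). Of the genes, 15494 were tested in 5 comparisons, with Benjamini-Hochberg adjustment at 0.05. An SE is the size of the log2 fold change over the square root of F. The fit was tested on simulated data. Results were recomputed with DESeq2 1.42.0, DESeq2 size factors in edgeR, unscaled totals, a looser and a stricter filter, the compared groups alone, replicate blocks, a Y-linked term and left-out libraries.

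Named genes were a fixed set of members, any called member, up to 5 members per direction and comparison with the lowest p among those with non-overlapping groups and a mean log2 CPM of at least 1, and up to 3 related genes per list by the same rule. Hspa8's pattern, Dnajc2, Dnajc6, Dnajc15, Dnajc19, Dnajb2 and Hspa1l, the library-number and length summaries, shared 50-base words and promoter motifs were chosen after values were seen. The 2-unit element was added when Hspa1a and Hspb1 held no 3-unit match, and a TATA box search was also run and is not reported. Exon lengths came from GENCODE vM21 (70 of 70 members), which may differ from the authors' annotation. On-off genes had a gap of at least 2 in log2(CPM + 0.1), with at least 2 libraries on each side and at least 1 CPM in the high set. That rule followed a stricter one that found no gene.

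Deviations of same-numbered libraries correlated at 0.44, 0.315 and 0.56 between control ventricles, 0.181, 0.18 and 0.628 between Wnt LOF ventricles and 0.108, 0.118 and 0.333 between RV genotypes, and at -0.0396, -0.114 and 0.223 between LV genotypes. Libraries of different numbers reached 0.233 between Wnt LOF ventricles (LV 1 with RV 2) and 0.188 between RV genotypes (control RV 1 with WntLOF RV 2). These correlations therefore do not settle the pairing of libraries 1 and 2 there. The on-off states do separate them between Wnt LOF ventricles. LV 1 shared 40 of 40 with RV 1 and 30 with RV 2, and LV 2 shared 39 with RV 2 and 31 with RV 1. The main fits used 1 mean per group and no pairing. Pairs by number entered only the replicate-block fits. Any pairing by number comes from the data, not from the labels.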

Additional observations from a re-analysis of the deposited data

How the results depend on the processing

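Of all fits run, only that of the compared groups with the replicate block, added after earlier results were known, called a member (Hspb7, control hearts, -0.363, adjusted p 0.0293), and the replicate block changed no other call of a member. In the fits over all 12 libraries the block moved members at an unadjusted p under 0.05 from 3 to 8 in control hearts, while all genes went from 757 to 1440 of 15494, and from 4 to 10 in Wnt LOF hearts, while all genes went from 746 to 1272. Total counts gave medians of -0.059 for RV against LV in Wnt LOF and -0.002 for the interaction. Without WntLOF LV 1 and WntLOF RV 1 the RV genotype median was -0.082, also with the library labelled control LV 2 left out, and then the control ventricle median was -0.017. With each library left out in turn, medians ran from -0.06 to -0.04 (LV genotype), -0.082 to 0.003 (RV genotype), -0.06 to -0.018 (control ventricles), -0.043 to 0.049 (Wnt LOF ventricles) and 0.017 to 0.07 (interaction). The extremes of the RV genotype and Wnt LOF ventricle ranges include those without WntLOF RV 1 (-0.082 and -0.043) and without WntLOF LV 2 (0.049). Among named genes with a difference of at least its SE, 3 changed sign without 1 library: Dnajc5 in the RV (-0.042 to 0.674, the lowest without WntLOF RV 3), Hspa5 in control hearts (-0.01 to 0.283, the lowest without control RV 2) and Hspb3 in Wnt LOF hearts (-0.017 to 0.477, the lowest without WntLOF RV 3). The cause of these changes was not tested. Depth limits Dnajc6 (6 to 20 counts per library), Dnajb7 (6 to 20) and Hspa1a (6 to 35) most among the tested members.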
